A study of Mus musculus with 6 samples.

Results

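The genes described here are the RNA helicases and RNA decay genes of mouse embryonic fibroblasts (MEFs), chosen by name. The rule used no expression value, but it was set with earlier results of these data known. The members are minus-strand genes whose symbols match those of DEAD-box (Ddx) and DEAH-box (Dhx) helicases, the RNA exosome (Exosc, Dis3) or deadenylases (Cnot, Pan). Others match the decapping and 5′-3′ decay factors (Dcp, Edc, Xrn), nonsense-mediated decay (Upf, Smg) or the mRNA-binding Pum and Zfp36 families. Ddx3y, Ddx58 and Dhx58 were left out. Zfp362, Zfp365 and Zfp367 match by their letters alone and are not of the Zfp36 family. This rule took 54 of the 38483 genes in the files. A further 53 genes with such names lie on the plus strand, where all 19214 genes were listed at 0 in every culture, so they could not be measured here. Among the 54, 52 had enough counts to be tested for a difference between genotypes. The other two were Ddx4, a helicase of germ cells, and Zfp36l3, which had no count in any culture.

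The study compared WT MEFs with MEFs heterozygous for a knockout of Nipbl (Nipbl+/-), the gene of the cohesin-loading factor that is mutated in most people with Cornelia de Lange syndrome. Each genotype had 3 cultures of the CD1 strain, at passage 3, grown from mid-gestation embryos after the limbs, brain and internal organs had been taken out, with no treatment. The WT cultures came from littermates, the methods describe the dissection of embryos from a single pregnant mouse, and which culture came from which embryo is not given. Total RNA was depleted of rRNA and sequenced, and the reads on each gene were counted.

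RNA helicases use ATP to open RNA duplexes or to move proteins off RNA, and they take part in splicing, ribosome assembly, export and decay. Most mRNA decay in the cytoplasm begins when the CCR4-NOT complex shortens the poly(A) tail, after which the RNA is degraded from its 3′ end by the exosome or, once decapped, from its 5′ end. Nonsense-mediated decay removes mRNAs with an early stop codon, and proteins of the Zfp36 family bring the deadenylases to mRNAs with AU-rich elements.

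The total count per culture lay between 20307454 and 25990783, of which the 54 genes took 0.515% to 0.579%. Nipbl itself was lower in the Nipbl+/- cultures by 0.43 on the log2 scale (adjusted p = 0.0213, edgeR's quasi-likelihood test, 3 cultures against 3), with 128, 145 and 135 CPM (TMM-normalized counts, scaled to a common library size) in the WT cultures and between 100.3 and 101.3 in the Nipbl+/- cultures. This call was lost without WT replicate 1 (adjusted p = 0.0755), without Nipbl+/- replicate 1 (0.0864) or without Nipbl+/- replicate 2 (0.0772). Of 11 fibroblast markers only Fn1 could be tested, at 14360 to 18188 CPM, because the other 10 lie on the plus strand. All 8 testable macrophage markers were higher in the Nipbl+/- cultures at an unadjusted p under 0.05, and none at an adjusted p under 0.05. Their summed level was 56.1 to 76.1 CPM in WT and 90.5 to 180 CPM in Nipbl+/- cultures. Counts of the Y-linked Ddx3y were 5240 to 5859 in WT 1, WT 2 and Nipbl+/- 3 and 4 to 11 in the others, which had 7544 to 7882 counts of Xist instead, so the sexes were not balanced between genotypes. The part of the macrophage RNA in the differences below was not tested. With the Xist or Ddx3y class of each culture as a term in the fit, which was chosen after seeing the data, no member was called either.

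No RNA helicase or decay gene passed the test in either direction. Among all 9061 tested genes, 1.04% were called higher and 0.916% lower in Nipbl+/- cultures at an adjusted p under 0.05, and of the 52 tested members 0 were called. At an unadjusted p under 0.05, Dis3l, Cnot2 and Zfp362 were on the higher side, or 3 of 52, where 8.98% of all tested genes were. Zfp362 matches the rule by letters alone, and without such genes 2 of 49 were on that side. Dhx40 alone was on the lower side, where 7.95% of all tested genes were. The log2 fold changes of the members ran from -0.18 (Dhx40) to 0.41 (Zfp362). Without the genes matched by letters alone the highest was 0.21 (Ddx25). The members' median was 0.05, beside a median of -0.01 over all tested genes. A log2 fold change above 0 was found in 38 of 52 members (73.1%) and in 48.4% of all tested genes. Among the 2100 tested genes with expression between the members' lower and upper quartiles, 1118 were above 0, with a median of 0.01. DESeq2 and edgeR's exact test also called 0 members, with 3 and 2 at an unadjusted p under 0.05. The shared direction of the members was not tested.

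**Figure D1:**
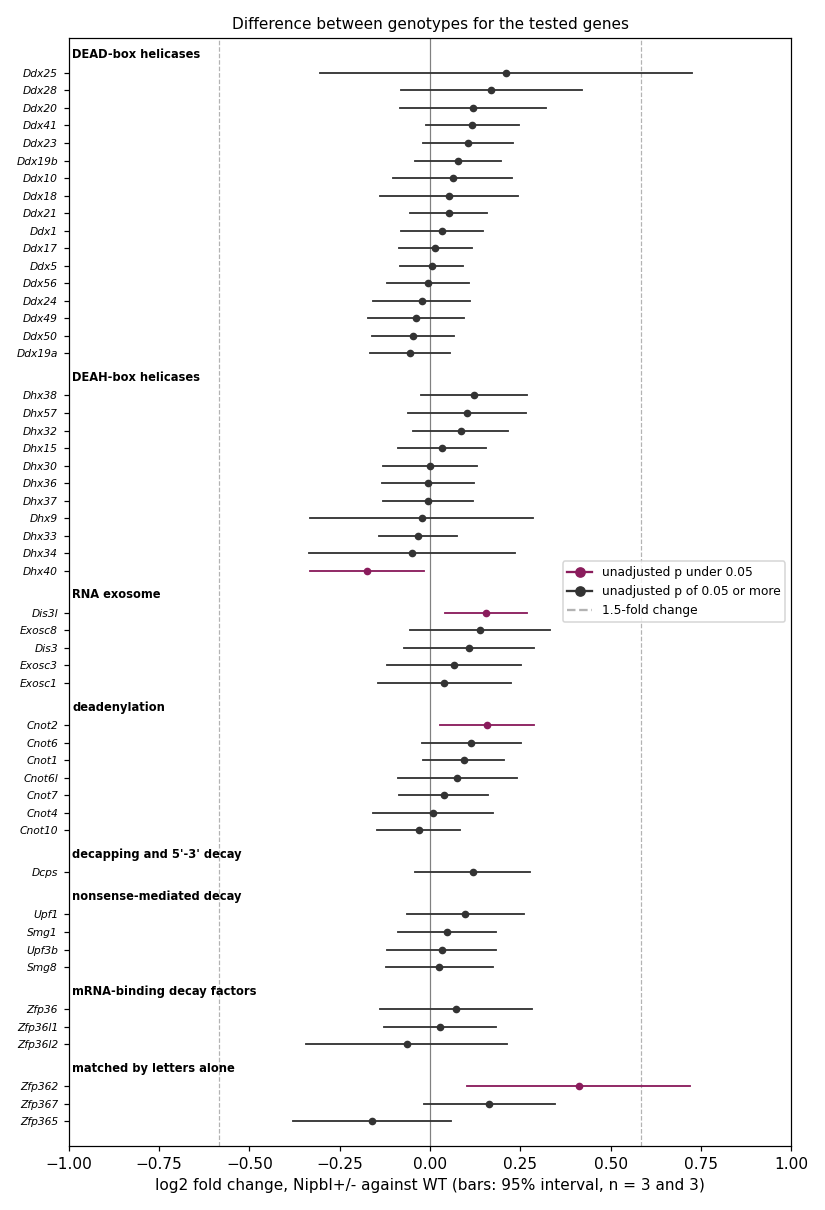
Log2 fold change of 51 of the 52 tested genes (x axis, Nipbl+/- against WT, 3 cultures each), grouped by role, with bars for the 95% interval from edgeR's quasi-likelihood fit and dashed lines at a 1.5-fold change. All intervals but those of Ddx25 and Zfp362 lie between the dashed lines, and 4 genes are coloured for an unadjusted p under 0.05.

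The intervals bound the difference of each tested member, gene by gene, in a fit with no term for sex or macrophage RNA. They do not cover the 53 genes of the plus strand. For 50 of the 52 members the 95% interval of the difference lay inside a 1.5-fold change in either direction, the exceptions being Ddx25 and Zfp362, while 68.4% of all tested genes had such an interval. The same 50 members had intervals inside the size of the Nipbl difference itself, as did 56.9% of all tested genes. On either side of the estimate the interval reached 0.14 at the median member and 0.23 at the median of all tested genes. Much of this goes with expression level. Of the 2100 tested genes in the same band of expression as the members between their lower and upper quartiles, 1987 had an interval inside a 1.5-fold change, and the median reach there was 0.15. Replicates of a genotype differed by an SD of 0.062 in log2 CPM at the median member, by 0.079 at the median gene of that band and by 0.12 at the median of all tested genes.

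**Figure D2:**
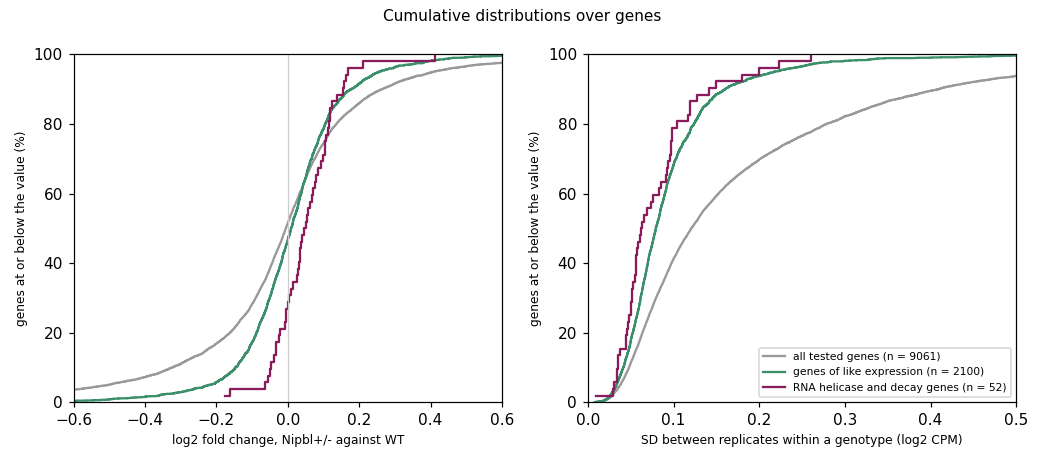
Cumulative share of genes (y axes, percent) by log2 fold change, Nipbl+/- against WT (left), and by the SD of log2 CPM between replicates of a genotype (right), for the 52 tested members, the 2100 genes of like expression and all 9061 tested genes. The curve of the members crosses 50% at 0.05 on the left, to the right of both other curves, and at 0.062 on the right.

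Levels between genes were compared as RPKM, the read count that the authors scaled by library size and by a gene length that the files do not give. By mean RPKM over the 6 cultures the members spanned from 1.40 (Ddx25) to 153 (Ddx5) among those tested, with a median of 14.3 against 7.89 for all tested genes. The order at the top was Ddx5 with 153, Ddx1 with 124, Dhx15 with 101, Ddx17 with 73.4, Ddx50 with 55.4 and Ddx21 with 47.3 RPKM. The first 5 of these each stood above the next in all 6 cultures, and Ddx5 did not go under 148, Ddx1 lay between 116 and 131, and Dhx15 between 93.3 and 109. Below them the ranges met. Ddx24 (40.2 to 46.4 RPKM) was followed by Cnot1 (32.7 to 39.0), Dhx36 (33.9 to 38.5) and Zfp36l2 (27.6 to 39.9), which overlapped each other. This order rests on the length behind the RPKM. Divided by all exonic bases of GENCODE M21 instead, an alternative chosen after seeing the data, Ddx5 (158 CPM per kilobase) and Ddx1 (63.4) kept the first places, followed by Ddx17 (47.3), Ddx21 (44.8) and Dhx15 (37.1), while Ddx50 had 14.3. Ddx25 stayed the lowest, at 0.349.

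**Figure D3:**
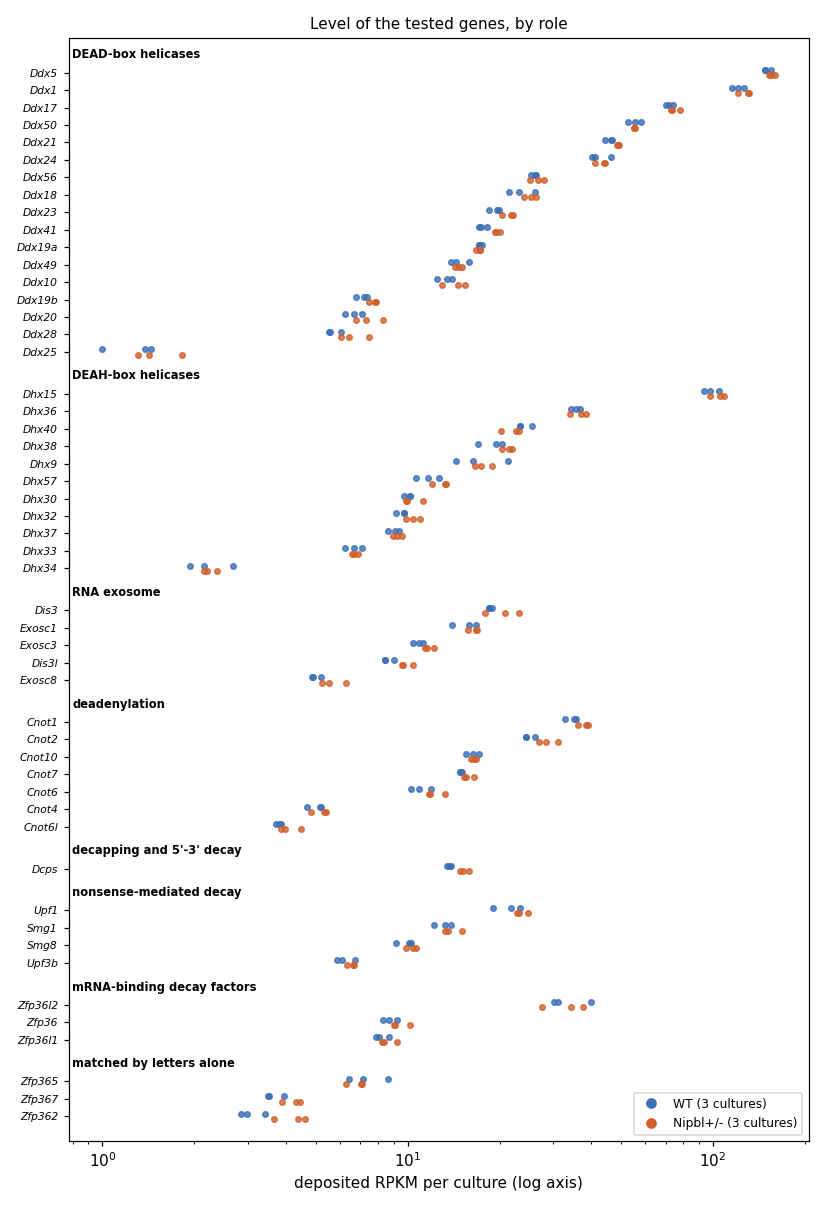
Deposited RPKM in each of the 6 cultures (x axis, log scale) for 51 of the 52 tested genes, ordered by mean level within each role, with the 3 WT cultures in blue and the 3 Nipbl+/- cultures in orange. The levels run from 1.40 RPKM for Ddx25 to 153 for Ddx5, and the distance between genes is far larger than that between genotypes.

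The promoters of the members were read from RefSeq (GRCm38.p6) as the 250 bases before the start site nearest to the start in the files. A promoter was found for 45 of the 52 tested members. The start site lay up to 22116 bases from that in the files (Exosc3), and 27 of the 45 windows touch an annotated exon of GENCODE M21. Their median GC content was 60.8%, beside 60.0% over the 5247 tested genes with a promoter, with a median of 18 and 16 CpG dinucleotides. A GC box (GGGCGG, searched like the others on both strands) stood in 73.3% of the members' windows and 58.5% of all, a CCAAT box (CCAAT) in 46.7% and 36.8%, an ETS family motif (CCGGAAG) in 28.9% and 13.6%, and a TATA box (TATAAA) in 4.44% and 6.58%. No binding was measured, and a match is only a run of letters. The windows of 3 members that touch no annotated exon of GENCODE M21 are shown for the range they cover. They are Upf1 with the most CpGs of any member (41), Dhx57 with the fewest (4) and no motif, and Ddx50 with a CCAAT box, a GC box and an ETS motif. They lie at chr8:70353280-70353529, chr17:80290477-80290726 and chr10:62651219-62651468 in mm10, and are written 5′ to 3′ on the minus strand, with matches to the motifs in capitals.
Upf1: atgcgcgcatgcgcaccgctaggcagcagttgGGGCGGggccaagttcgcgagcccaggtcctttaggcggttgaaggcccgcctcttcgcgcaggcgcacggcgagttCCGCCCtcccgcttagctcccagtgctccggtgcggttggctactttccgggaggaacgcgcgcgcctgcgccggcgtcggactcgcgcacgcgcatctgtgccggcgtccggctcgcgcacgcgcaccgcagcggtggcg
Dhx57: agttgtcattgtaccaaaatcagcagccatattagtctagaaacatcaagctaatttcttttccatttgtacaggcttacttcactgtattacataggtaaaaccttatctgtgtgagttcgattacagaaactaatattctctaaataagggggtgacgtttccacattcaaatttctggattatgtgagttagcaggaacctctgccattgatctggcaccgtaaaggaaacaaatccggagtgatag
Ddx50: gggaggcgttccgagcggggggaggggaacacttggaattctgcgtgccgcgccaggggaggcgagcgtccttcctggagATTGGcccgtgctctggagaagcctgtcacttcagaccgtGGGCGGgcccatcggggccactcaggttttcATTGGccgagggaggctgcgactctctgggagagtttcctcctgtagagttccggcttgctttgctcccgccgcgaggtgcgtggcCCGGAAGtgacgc

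The DEAD-box helicases were the largest group, with 18 members of which 17 were tested. None passed the test, and their median log2 fold change was 0.05. A change above 0 was found in 12 of the 17, beside 48.4% of all tested genes. Ddx5, a cofactor of splicing and of microRNA processing, lies at chr11:106780355-106789185 and was the most expressed member. Its level was 913, 912 and 917 CPM in the WT cultures and 909, 917 and 925 CPM in the Nipbl+/- cultures. These 6 values lay within 1.02-fold of each other and the groups overlapped. The means were 914 ± 2.89 and 917 ± 7.82 CPM (SD, n = 3 each), and the log2 fold change was 0.00 (SE 0.04, 95% interval -0.08 to 0.09, adjusted p = 0.970). Its sign turned to -0.01 under upper-quartile normalization. Its close relative Ddx17 had 355 to 374 CPM over all cultures, within 1.05-fold of each other, with a log2 fold change of 0.01. Reads that fit both genes may have been shared out between them by the authors' counting, which the sources used here do not describe.

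Ddx25, a helicase best known from the testis, had the lowest level of the tested members and the largest log2 fold change among the DEAD-box genes. It was measured at 2.59, 1.78 and 2.37 CPM in WT and at 3.16, 2.25 and 2.39 CPM in Nipbl+/- cultures. The groups overlapped, and the log2 fold change of 0.21 had an interval from -0.30 to 0.72 (SE 0.22, adjusted p = 0.689; exact two-sided permutation test p = 0.5, where 3 against 3 cannot go below 0.1). The interval reached beyond a 1.5-fold increase.

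Ddx21, a nucleolar helicase of ribosome assembly, had 224, 235 and 225 CPM in WT and 236, 240 and 232 CPM in Nipbl+/- cultures, a log2 fold change of 0.05. Its neighbour and paralog Ddx50, which follows on the same strand of chromosome 10 (chr10:62616023-62651218, after Ddx21 at chr10:62580248-62602298), had 150, 142 and 150 CPM in WT and 144, 143 and 141 CPM in Nipbl+/- cultures, a log2 fold change of -0.05. In both the groups overlapped. Ddx24, Ddx56, Ddx18, Ddx49 and Ddx10, which also act in ribosome assembly, had log2 fold changes between -0.04 and 0.06, each with an interval that held 0. Exons of Ddx49 share 29.8% of their bases with Homer3 on the other strand, and the counting is not stated to use strand.

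Ddx23, a splicing helicase of the U5 snRNP, differed between genotypes by 0.10 on the log2 scale (adjusted p = 0.380), and Ddx41, which acts in the late spliceosome, by 0.12 (adjusted p = 0.341). Ddx41 was one of the 6 members in which all Nipbl+/- cultures lay above all WT cultures, with 42.9, 40.3 and 39.2 CPM in WT and 44.4, 43.8 and 44.5 CPM in Nipbl+/- cultures, though 17.4% of its exonic bases also belong to the antisense gene Gm46416. The export helicases Ddx19a and Ddx19b, which sit side by side on chromosome 8, had log2 fold changes of -0.06 and 0.08. Ddx20, of the SMN complex, was at 0.12 and Ddx28, a mitochondrial helicase, at 0.17, with 10.6 to 14.0 CPM. Ddx1, of the tRNA ligase complex, was at 0.03 with the interval from -0.08 to 0.15.

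All 11 DEAH-box helicases were tested, with a median log2 fold change of -0.01 and 5 of 11 above 0. That count was 9 of 11, and the median 0.03, when libraries were scaled by their size alone. Dhx15, which takes the spliceosome apart after splicing, had the highest level (101 RPKM). Its values were 300, 313 and 322 CPM in WT and 303, 325 and 329 CPM in Nipbl+/- cultures. The groups overlapped, with a log2 fold change of 0.03 (SE 0.05, adjusted p = 0.797).

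Dhx40 (chr11:86768846-86807696) was the only member with all Nipbl+/- cultures below all WT cultures, a pattern found in 10.8% of all tested genes. It had 105, 114 and 99.6 CPM in WT and 87.5, 99.1 and 94.8 CPM in Nipbl+/- cultures. The highest Nipbl+/- value and the lowest WT value were all but equal, so the groups were barely apart. The means were 106 ± 7.13 and 93.8 ± 5.86 CPM (SD, n = 3 each), a log2 fold change of -0.18 (SE 0.07, 95% interval -0.33 to -0.02, unadjusted p = 0.0337, adjusted p = 0.255; exact two-sided permutation p = 0.1, the smallest possible). The lower level kept its sign under every alternative tried, at -0.22 to -0.12, and passed the adjusted threshold under none. Its unadjusted p was not under 0.05 with library size alone, with edgeR's exact test or with the Xist or Ddx3y term (log2 fold change -0.148). Nor was it without WT replicate 1 or 2, or without Nipbl+/- replicate 1 or 3.

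Dhx38, needed for the catalytic steps of splicing, was at 0.12 and had all Nipbl+/- cultures (88.2 to 92.4 CPM) above all WT cultures (76.1 to 87.3 CPM). Dhx9, RNA helicase A, had the widest spread of the group, with 70.7, 105 and 77.2 CPM in WT and 89.9, 78.6 and 80.3 CPM in Nipbl+/- cultures. A single WT culture stood above the rest, and the log2 fold change of -0.02 had an interval from -0.33 to 0.28. Dhx36, which unwinds G-quadruplexes, Dhx37 and Dhx33, both of ribosome assembly, and Dhx30, of the mitochondrial ribosome, had log2 fold changes between -0.03 and 0.00. Dhx57 and Dhx32 were at 0.10 and 0.08. Dhx34, a helicase that takes part in nonsense-mediated decay, was the least expressed of the group, with 9.53 to 12.6 CPM and a log2 fold change of -0.05.

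The RNA exosome had 5 tested members, and all 5 had a log2 fold change above 0, between 0.04 and 0.15, while none passed the test. Over all tested genes 48.4% were above 0, and without WT replicate 1 the exosome had 4 of 5 above 0. The summed level of the 5 members was 183, 188 and 183 CPM in WT and 187, 199 and 212 CPM in Nipbl+/- cultures, so the groups overlapped by 1 culture. Dis3l (chr9:64306756-64341288), the ribonuclease of the cytoplasmic exosome, had the smallest unadjusted p of any member. It was measured at 49.05, 49.05 and 50.48 CPM in WT and at 53.93, 54.23 and 57.20 CPM in Nipbl+/- cultures, with no overlap. The means were 49.5 ± 0.829 and 55.1 ± 1.81 CPM (SD, n = 3 each), a log2 fold change of 0.15 (SE 0.05, 95% interval 0.04 to 0.27, unadjusted p = 0.0139, adjusted p = 0.163; exact two-sided permutation p = 0.1). The difference was small and did not pass the correction over 9061 genes. Dis3l was named for its small p, and 12% of all tested genes had every Nipbl+/- culture above every WT culture. Its unadjusted p was not under 0.05 with DESeq2 or without Nipbl+/- replicate 3.

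Dis3, the catalytic subunit of the nuclear exosome, had the highest RPKM of this role, at 19.6, but per kilobase of GENCODE exons it had 9.74 CPM, below the 11.7 of Exosc3. Its WT cultures were close together, at 73.2, 73.1 and 71.9 CPM, and the Nipbl+/- cultures were spread around them, at 68.8, 79.8 and 86.6 CPM. The log2 fold change was 0.11 (SE 0.08, adjusted p = 0.541; exact two-sided permutation p = 0.4). Exosc8, of the ring of the complex, was at 0.14, and Exosc1 and Exosc3, of its cap, at 0.04 and 0.07, all with intervals that held 0.

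The deadenylation genes were 7 subunits of CCR4-NOT, and 6 of them had a log2 fold change above 0, beside 48.4% of all tested genes. Their median was 0.08. Summed, they had 684, 708 and 703 CPM in WT and 719, 754 and 747 CPM in Nipbl+/- cultures. All Nipbl+/- sums were above all WT sums, with means of 740 ± 18.6 and 698 ± 12.7 CPM (SD, n = 3 each). Among single tested genes 12% had this pattern. The sums of the other roles overlapped, apart from decapping, which is Dcps alone. The difference between the sums was not tested. With Nipbl+/- replicate 2 left out the median log2 fold change was 0.00 and 4 of 7 were above 0. Cnot1, the scaffold of the complex, had the highest RPKM of the role (36.1), although per kilobase of exons Cnot2 (25.3 CPM) was above it (18.3 CPM). It was measured at 293, 312 and 305 CPM in WT and 312, 330 and 329 CPM in Nipbl+/- cultures. The lowest Nipbl+/- culture lay just under the highest WT culture. The log2 fold change was 0.09 (SE 0.05, 95% interval -0.02 to 0.21, adjusted p = 0.384; exact two-sided permutation p = 0.2).

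Cnot2 (chr10:116485161-116581511), which joins Cnot3 in a structural module of the complex, had the largest difference of the role. Its level was 97.0, 96.2 and 99.2 CPM in WT and 103, 108 and 115 CPM in Nipbl+/- cultures, with no overlap. The means were 97.5 ± 1.59 and 109 ± 6.31 CPM (SD, n = 3 each), and the log2 fold change was 0.16 (SE 0.06, 95% interval 0.03 to 0.29, unadjusted p = 0.0225, adjusted p = 0.208; exact two-sided permutation p = 0.1). The unadjusted p of Cnot2 was not under 0.05 with edgeR's exact test, without WT replicate 1 or 2, or without Nipbl+/- replicate 3. Of its exonic bases 5.7% are shared with 5330438D12Rik on the other strand. The deadenylases proper did not differ beyond their error. Cnot6 was at 0.11 (adjusted p = 0.382), its paralog Cnot6l at 0.08 and Cnot7 at 0.04. Cnot4, a ubiquitin ligase, was at 0.01 and Cnot10 at -0.03.

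Of the decapping and 5′-3′ decay genes only Dcps, which degrades the cap left after 3′-5′ decay, was on the minus strand. It had 21.5, 20.7 and 20.3 CPM in WT and 23.7, 22.1 and 22.1 CPM in Nipbl+/- cultures, with no overlap. The log2 fold change was 0.12 (SE 0.07, 95% interval -0.04 to 0.28, adjusted p = 0.441; exact two-sided permutation p = 0.1), and 7.6% of its exonic bases are shared with an antisense transcript. In all, Ddx41, Dhx38, Cnot2, Dcps, Zfp362 and Dis3l, or 6 of 52 members (11.5%), had every Nipbl+/- culture above every WT culture, and 12% of all tested genes did.

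**Figure D4:**
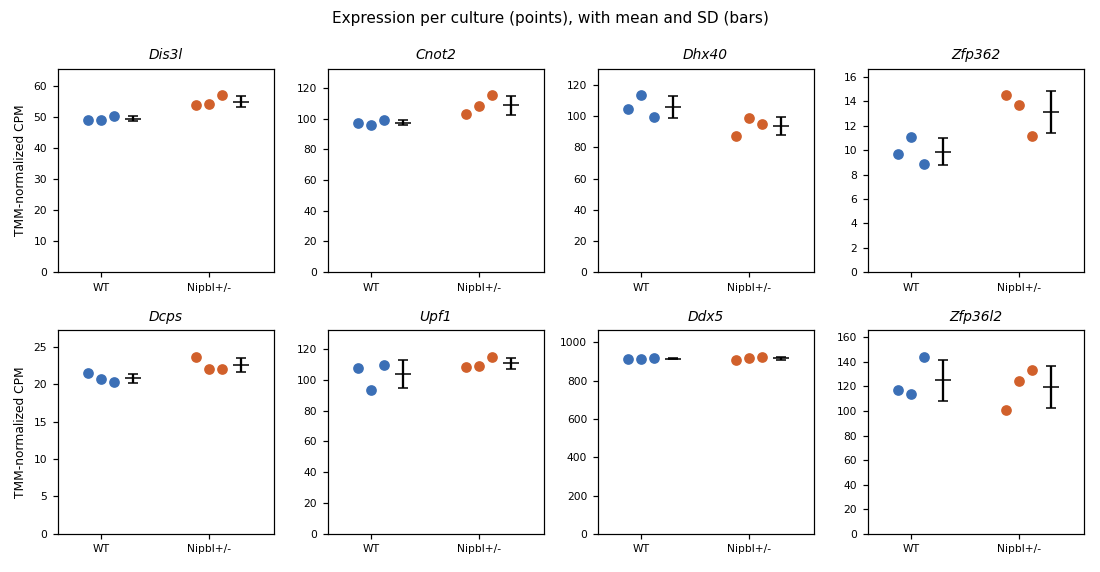
TMM-normalized CPM (y axes, from 0) of 8 named genes in each WT and Nipbl+/- culture (points), with the mean and SD of the 3 cultures (black bars). The groups of Dis3l, Cnot2, Dhx40, Zfp362 and Dcps do not overlap, and those of Upf1, Ddx5 and Zfp36l2 do.

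The nonsense-mediated decay genes had 5 tested members with log2 fold changes between 0.03 and 0.10, all above 0, none past the test. Over all tested genes 48.4% were above 0. Without WT replicate 1 the median of the 5 fell from 0.046 to 0.0059, and 4 of 5 were above 0. Without Nipbl+/- replicate 3, 4 of 5 were above 0 as well. Upf1, the central helicase of the pathway, had both the highest level, at 22.5 RPKM, and the largest log2 fold change. Its values were 108, 93.3 and 110 CPM in WT and 108, 109 and 115 CPM in Nipbl+/- cultures. WT replicate 2 was the lowest of the 6, WT replicate 1 lay just below the Nipbl+/- cultures, and WT replicate 3 lay among them. The log2 fold change was 0.10 (SE 0.07, 95% interval -0.06 to 0.26, adjusted p = 0.535; exact two-sided permutation p = 0.3), and 0.03 at the lowest over the alternatives. Smg1, the kinase of Upf1, was at 0.05 and Smg8, a subunit of the Smg1 complex, at 0.03. Upf3b, the X-linked link to the exon junction complex, was at 0.03 with 25.1 to 27.4 CPM over all cultures.

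Among the mRNA-binding decay factors, Zfp36, Zfp36l1 and Zfp36l2 were tested. Zfp36l2 had the highest level, at 33.5 RPKM, and a wide spread within each genotype, at 117, 113 and 144 CPM in WT and 100.5, 125 and 133 CPM in Nipbl+/- cultures. The groups overlapped throughout. Its log2 fold change of -0.06 (SE 0.12, 95% interval -0.34 to 0.21, adjusted p = 0.835; exact two-sided permutation p = 0.8) turned to 0.05 without WT replicate 3 and to 0.04 without Nipbl+/- replicate 1. Zfp36, or tristetraprolin, had 15.8, 17.6 and 15.9 CPM in WT and 18.8, 16.6 and 16.4 CPM in Nipbl+/- cultures. These overlapped as well, with a log2 fold change of 0.07 (adjusted p = 0.744; exact two-sided permutation p = 0.5). Zfp36l1 was at 0.03, but 55.9% of its exonic bases belong also to Gm26669 on the other strand.

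The 3 remaining genes, Zfp362, Zfp365 and Zfp367, are zinc finger genes that match the rule by their letters alone and are not members of the Zfp36 family. Zfp362 (chr4:128773088-128806045) had the largest log2 fold change of all 52. It was measured at 9.71, 11.1 and 8.86 CPM in WT and at 14.5, 13.7 and 11.2 CPM in Nipbl+/- cultures. The lowest Nipbl+/- value was barely above the highest WT value, and the unadjusted p was not under 0.05 without Nipbl+/- replicate 1. The log2 fold change was 0.41 (SE 0.13, 95% interval 0.10 to 0.72, unadjusted p = 0.0149, adjusted p = 0.168; exact two-sided permutation p = 0.1). Zfp365, the most expressed of the 3, went the other way, with 35.8, 39.4 and 45.9 CPM in WT and 33.7, 37.5 and 37.1 CPM in Nipbl+/- cultures, overlapping, at a log2 fold change of -0.16 (adjusted p = 0.440; exact two-sided permutation p = 0.3). Zfp367 was at 0.16 (adjusted p = 0.339), and 10.9% of its exonic bases belong also to Gm47513 on the other strand. Without these 3, the median of the remaining 49 was 0.05 and 36 of 49 were above 0.

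Other genes that work with these were taken from a written list of 103 names, covering further helicases, exosome cofactors and the Ski complex, deadenylation, decapping, exon junction and release factors, mRNA-binding factors, and transcripts known as targets of nonsense-mediated decay or of the Zfp36 family. Of these, 48 lie on the plus strand, and 49 genes under 47 names were tested. None passed an adjusted p under 0.05 in either direction with edgeR. At an unadjusted p under 0.05, 5 were higher and 2 lower, beside 8.98% and 7.95% of all tested genes, and 31 of 49 had a log2 fold change above 0, beside 48.4%, with a median of 0.03. Those on the higher side, named after their values were seen, were Mov10, a helicase of RNA silencing, at 0.24 (adjusted p = 0.113), Ighmbp2 at 0.22, Lsm5 of the ring that binds deadenylated mRNA at 0.22, the AU-rich element binding protein Khsrp at 0.16 and the nuclear exosome helicase Skiv2l2 at 0.14. Those on the lower side were Samd4b at -0.16 and Vegfa, the only tested transcript among the listed Zfp36 targets, at -0.23 (adjusted p = 0.0941). The cofactors of deadenylation, 7 genes under 6 names, had 1 of 7 above 0, with a median of -0.06. The gene above 0 was named Tob2, at 0.07, while another gene of that name was at -0.14. Gadd45a, the only tested target of nonsense-mediated decay, had 30.1 to 37.5 CPM in WT and 31.4 to 36.6 CPM in Nipbl+/- cultures, with a log2 fold change of 0.02.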

How the data were processed

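Sequenced RNA from 3 cultures of WT and 3 of Nipbl+/- fibroblasts was used. Per the labels and the methods, the authors aligned rRNA-depleted reads to mm10 with TopHat2 2.0.10 and Ensembl gene annotation. The authors deposited raw read counts per gene and, beside them, RPKM values; the counting tool is not given in the sources used here. Counts were filtered (filterByExpr, minimum count 10), TMM-normalized and tested with edgeR 4.0.16 (quasi-likelihood, no covariate) in R 4.3.3, with Benjamini-Hochberg adjustment over all 9061 tested genes and a threshold of 0.05. SE is the absolute log2 fold change over the square root of F. RPKM served only to compare levels between genes. Replicates differed by more than counting noise (chi-square per degree of freedom 10.1 to 34.6). The p-values, SE and intervals rest on a spread between cultures that edgeR estimates with information shared across genes. They can therefore differ from the spread of a gene's own replicates. The members, roles and lists were chosen with earlier results of these data known. Genes named with values were those past an adjusted or unadjusted p of 0.05, and in each role the highest level and the largest change; other members named beside them were chosen after their values were seen, and a gene counted in its role is not reported here by itself. Alternatives were other normalizations, filters and tests (DESeq2 1.42.0 among them), the replicate block and each culture left out. The steps were tested on simulated data.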

Additional observations from a re-analysis of the deposited data

How the results depend on the processing

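Over the 15 alternatives no member was called in either direction, and the smallest adjusted p of any member was 0.116 (Zfp362, without WT replicate 2). The members at an unadjusted p under 0.05 numbered 4 in the reported fit and 2 to 6 over the alternatives, and those with a log2 fold change above 0 numbered 33 to 45 of 52. The members' median of 0.05 was 0.0866 with library size alone, which also moved the median of all genes from -0.01 to 0.03, and lay between 0.0253 and 0.054 with a culture left out. The log2 fold change of Ddx5 turned to -0.00637 under upper-quartile normalization and to -0.00174 without Nipbl+/- replicate 3 (-0.00174 to 0.00785 with a culture left out), and that of Zfp36l2 to 0.0498 without WT replicate 3 and 0.042 without Nipbl+/- replicate 1 (-0.15 to 0.0498 with a culture left out). Nipbl lay between -0.474 and -0.385 with a culture left out and lost its call in 3 of those 6 fits. The cause was not tested.

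The calls over all genes, 94 higher and 83 lower, became 219 and 213 with edgeR's exact test, 230 and 206 with DESeq2, 173 and 152 without a filter, 34 and 52 with the replicate block, 1 and 2 without Nipbl+/- replicate 1, 2 and 4 without WT replicate 1, 3 and 8 without Nipbl+/- replicate 2, 26 and 39 without WT replicate 3, 34 and 33 without Nipbl+/- replicate 3 and 130 and 138 without WT replicate 2. With library size alone they were 142 and 70. What cultures with the same number shared beyond it is not given. Their deviations from the genotype mean correlated at -0.0621, -0.0364 and -0.142. These values cannot decide it, because each such pair joined a culture with high Ddx3y counts to one with high Xist counts. In the fit with the replicate block, 0 members were called and the members' median was 0.0484. Ddx25 had the lowest counts of the tested members. What share of each member's error comes from depth was not tested.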
